A study of Homo sapiens with 24 samples.

Results

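Endogenous retroviruses (ERVs) are remnants of ancient germline infections, and a few of their loci are annotated as human genes. The 8 examined here, ERVW-1, ERVFRD-1, ERVMER34-1, ERV3-1, ERVH48-1, ERVK3-1, ERVK13-1 and HHLA2, were chosen by symbol, with earlier results of these data known, among 58735 genes in each count table. They give a gene-level view of whether retroelement-derived transcripts appeared when maintenance of DNA methylation was disrupted, because the tables count annotated genes and not repeat families. Each of the 8 symbols matched 1 gene of the tables.

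The RNA came from HCT116, a human colorectal carcinoma line with a doxycycline-inducible OsTIR1, the plant F-box protein that lets auxin trigger degradation of a protein carrying an auxin-inducible degron (AID). The WT line carried no degron, UHRF1-AID cells had endogenous UHRF1 tagged at its C-terminus, DNMT1-AID cells had endogenous DNMT1 tagged at its N-terminus, and both tags were combined in the UHRF1-AID/DNMT1-AID line, called compound here. UHRF1 recognises hemimethylated DNA after replication and recruits DNMT1, which copies the methylation to the new strand. Each line was sequenced without auxin (day 0) and after 4 days with 500 µM auxin and 2 µg/mL doxycycline (day 4), giving 8 groups of 3 libraries. The labels give no doxycycline dose for day 0. By the study's methods, cells were kept in doxycycline and auxinole before auxin was added. Whether the day 0 libraries had this step is not stated. WT cells received the same treatment, and every group shared the OsTIR1 parent. The study describes the 3 libraries of a group as biological replicates and prepared its replicates of the tagged lines from separate clones, while the labels of these libraries give a replicate number and no clone.

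Gene counts summed to 15824804 to 25073821 per library. All 12 libraries of day 0 shared an alignment folder with the 3 from UHRF1-AID cells at day 4, and the other 9 day 4 libraries, the only ones with spike-in counts, shared another. The comparison of UHRF1-AID with WT cells at day 4 therefore crosses the folders, as does day 4 against day 0 in the other 3 lines, and there folder and group cannot be told apart. The other comparisons lie within a folder or, for the differences of day effects, have the same folder change in both lines. AID acts on the protein, so the mRNA of UHRF1 and DNMT1 does not check depletion. The epithelial marker EPCAM stood between 333 and 600 CPM (counts relative to the library total, scaled by TMM over all 24 libraries) in every library, while the colorectal markers VIL1, LGALS4 and CDX1 were close to 0 in WT cells. Summed CPM of 4 leukocyte markers lay between 0 and 0.436 in day 0 libraries, and at day 4 0.0638 to 0.361 for WT, 0.603 to 1.36 for UHRF1-AID, 0.242 to 0.646 for DNMT1-AID and 1.20 to 1.66 for compound cells. Of 11 trophoblast markers, 3 (CGA, PSG1 and LGALS13) had no count in any library, and the list, of which the epithelial keratin KRT7 made up a large part in several libraries, was higher in compound than in WT cells. Its summed CPM was 64 to 166 against 17.3 to 19.5 at day 0 and 35.4 to 56.3 against 14.7 to 16.6 at day 4. HLA-G, of the same list, had 33 to 54 reads in compound and at most 1 in WT libraries at day 4. Summed CPM of 5 fibroblast and endothelial markers was 17.5 to 21.0 in compound and 3.32 to 9.50 in WT cells at day 4. The part of these markers in the results was not tested.

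ERV envelope genes that kept an open reading frame are best known from the placenta. ERVW-1 encodes syncytin-1 and ERVFRD-1 syncytin-2, envelope proteins that fuse trophoblast cells, and ERVH48-1 encodes suppressyn, a secreted envelope fragment that blocks syncytin-1 at its receptor SLC1A5. ERVMER34-1 and ERV3-1 encode further envelope proteins, and HHLA2 encodes an immune checkpoint ligand of the B7 family whose transcripts were first described with ERV polyadenylation. DNA methylation is a known means of silencing ERV long terminal repeats.

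The members lie on 7 chromosomes of hg38. ERVMER34-1 (ENSG00000226887) spans chr4:52722618-52751640 on the minus strand, and ERV3-1 (ENSG00000213462) spans chr7:64990809-65006743 on the minus strand. ERVW-1 (ENSG00000242950) lies on the same chromosome at chr7:92468380-92477986, minus strand. ERVFRD-1 (ENSG00000244476) spans chr6:11102489-11111732 on the minus strand, within the span of SMIM13 on the opposite strand. ERVH48-1 (ENSG00000233056) lies at chr21:42916803-42925646 on the minus strand. ERVK3-1 (ENSG00000142396) spans chr19:58305319-58315663 on the plus strand and ERVK13-1 (ENSG00000260565) chr16:2660349-2673444 on the minus strand. HHLA2 (ENSG00000114455) spans chr3:108296490-108378285 on the plus strand. GENCODE annotates ERVK13-1 as a long non-coding RNA and the other 7 as protein-coding.

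Reads from repeats can be hard to place, so the uniqueness of each gene was measured as the share of its exonic windows of 100 bases found once in hg38. All windows were unique in ERVFRD-1, ERVMER34-1, ERV3-1 and ERVH48-1. The share was 98.4% in HHLA2, 96.7% in ERVW-1, 96.5% in ERVK3-1 and 91.4% in ERVK13-1. Overlap with other genes was a larger limit for ERVK3-1, where 51.6% of exonic bases are shared, with the ZNF8-ERVK3-1 readthrough transcript, the antisense ENSG00000283103 and ENSG00000283515. In ERV3-1 8.13% of exonic bases are shared, with ZNF117 on the same strand. Since the sources used here do not state the strand or multiple-alignment settings of the counting, counts of ERVK3-1, ERV3-1 and ERVK13-1 are uncertain.

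Promoter windows, from 250 bases before to 50 bases after a start, were taken from RefSeq (GRCh38.p14), where 6 of the 8 members matched with 9 windows. No window was found for ERVFRD-1 or ERVH48-1. The windows differ widely in CpG dinucleotides, the sites at which methylation is maintained. Over 35116 windows of all genes the median was 14 CpGs. Below are those of ERVMER34-1 (chr4:52751376-52751675, minus strand) and ERVK13-1 (chr16:2673390-2673689, minus strand), the members called after the count filter, and the first of 3 windows of HHLA2 (chr3:108296298-108296597, plus strand), which had few or no reads outside the compound line. CpGs are in capitals.
ERVMER34-1: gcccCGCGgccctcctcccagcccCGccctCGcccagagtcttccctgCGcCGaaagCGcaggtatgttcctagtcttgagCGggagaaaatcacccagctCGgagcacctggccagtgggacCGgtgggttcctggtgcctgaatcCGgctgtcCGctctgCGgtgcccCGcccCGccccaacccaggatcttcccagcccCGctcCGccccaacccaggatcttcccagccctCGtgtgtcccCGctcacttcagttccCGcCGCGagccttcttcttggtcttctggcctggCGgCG
ERVK13-1: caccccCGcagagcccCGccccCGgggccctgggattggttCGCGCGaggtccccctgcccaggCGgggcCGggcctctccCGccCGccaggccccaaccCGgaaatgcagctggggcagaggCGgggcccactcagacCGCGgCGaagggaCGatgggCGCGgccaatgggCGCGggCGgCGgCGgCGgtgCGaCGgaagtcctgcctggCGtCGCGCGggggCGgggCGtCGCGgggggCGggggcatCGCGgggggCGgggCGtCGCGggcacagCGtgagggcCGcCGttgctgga
HHLA2: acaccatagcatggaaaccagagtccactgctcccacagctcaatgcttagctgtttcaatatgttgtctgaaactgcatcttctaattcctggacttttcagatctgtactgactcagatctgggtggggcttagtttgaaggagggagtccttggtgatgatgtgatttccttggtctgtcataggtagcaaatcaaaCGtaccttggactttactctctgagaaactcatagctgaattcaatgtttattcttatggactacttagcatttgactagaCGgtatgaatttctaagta
The ERVK13-1 window held 44 CpGs, more than 95.8% of all windows, and that of ERVMER34-1 held 24, more than 66.1%. The ERVK3-1 window held 27 and that of ERVW-1 held 5. That ERVW-1 window (chr7:92471375-92471674, minus strand) lies within the gene span given above and does not cover its 5′ end. The ERV3-1 windows held 9 and 4, and those of HHLA2 2, 4 and 0. GGGCGG, searched on both strands, stood in the windows of ERVMER34-1, ERVK13-1 and ERVK3-1 and in the second of ERV3-1, against 45.0% of all windows. TATAAA, searched likewise, stood in those of ERVW-1 and ERVK3-1 and in the second of ERV3-1, against 11.5% of all windows. These are letter matches within the windows only.

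In the 24 libraries 4 of the 8 genes were expressed throughout and 4 were at or near 0. In TPM, the length-corrected level, ERVMER34-1 had the highest median level over libraries at 10.4, ranging from 3.81 to 20.5. ERV3-1 followed at 1.38, with a range of 0.660 to 2.88, ERVK3-1 at 0.938 with 0.411 to 1.70, and ERVK13-1 at 0.451 with 0.228 to 0.728. The ranges of ERV3-1, ERVK3-1 and ERVK13-1 overlapped, whereas the lowest value of ERVMER34-1 exceeded the highest of every other member. The median of ERVH48-1, ERVW-1, ERVFRD-1 and HHLA2 was 0.

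ERVMER34-1 was the member that changed most clearly, and it fell. In WT cells its CPM was 20.0, 17.4 and 19.7 in the replicates at day 0 and 10.8, 11.1 and 9.68 at day 4. In UHRF1-AID cells the values were 19.3, 23.4 and 20.1 at day 0 and 7.80, 7.83 and 7.47 at day 4. In DNMT1-AID cells they were 24.8, 17.5 and 26.2, then 6.63, 9.24 and 10.9. In each of these 3 lines, every day 4 library was below every day 0 library. In such bulk RNA, fewer cells expressing a gene and less RNA per cell cannot be told apart. The compound line showed the same separation with a wider gap, from 22.6, 21.7 and 22.7 CPM at day 0 to 5.65, 6.27 and 5.48 at day 4, and its day 4 values were the lowest of all groups.

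A gene was called when the edgeR quasi-likelihood test gave a Benjamini-Hochberg adjusted p under 0.05, over all genes tested, with an absolute log2 fold change above 1. ERVMER34-1, ERV3-1, ERVK3-1 and ERVK13-1 passed the filter on low counts in every comparison. Between day 0 and day 4, ERVMER34-1 fell by 1.42 on the log2 scale in UHRF1-AID cells (SE 0.16, edgeR adjusted p = 0.000115), by 1.33 in DNMT1-AID cells (SE 0.23, adjusted p = 0.00116) and by 1.90 in compound cells (SE 0.12, adjusted p = 3.5e-10). Its fall of 0.85 in WT cells (SE 0.14) also had an edgeR adjusted p of 0.0021, but did not reach the fold threshold. Called members numbered 0 of 4 in WT (1 at an unadjusted p under 0.05, and 0 called by DESeq2), 2 in the UHRF1-AID line, 1 in the DNMT1-AID line and 1 in the compound line, all of them lower. In WT cells 6285 of 13601 genes had an unadjusted p under 0.05. Among all genes tested 11.9%, 21.9%, 15.3% and 26.6% were called in either direction, and 6.53%, 9.82%, 6.68% and 11.5% were called lower, while 5.37%, 12.1%, 8.62% and 15.1% were called higher, so 1 or 2 called members of 4 must be read against a background of this size. With the adjusted p alone and no minimum fold, ERVMER34-1 passed in WT, ERVMER34-1 and ERVK13-1 in UHRF1-AID, ERVMER34-1 in DNMT1-AID, and ERVMER34-1 and ERV3-1 in compound cells, against 35.6%, 49.4%, 40.4% and 67.8% of genes.

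In WT cells, as in DNMT1-AID and compound cells, the days lie in different alignment folders, so the fall there cannot be told apart from the folder change. The test of the difference of day effects gave a larger fall in compound than in WT cells by 1.10 on the log2 scale (SE 0.17, 95% interval -1.47 to -0.74, edgeR adjusted p = 0.00087), and 5.41% of genes were called in this comparison, 3.46% higher and 1.96% lower. It was the only 1 of the 4 tested members called there, also with no minimum fold (15.3% of genes). For DNMT1-AID against WT cells the difference of day effects was -0.48 (SE 0.27, 95% interval -1.06 to 0.10), with an edgeR adjusted p of 0.457, and 0 of 4 members were called (0 at an unadjusted p under 0.05, and 0 by DESeq2) against 0.139% of genes (0.132% higher, 0.00696% lower, and 0.153% with no minimum fold). An unadjusted p under 0.05 was found there for 1829 of 14370 genes. The day effect was not set against WT for UHRF1-AID cells, whose day 4 libraries alone stayed in the first folder.

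**Figure D1:**
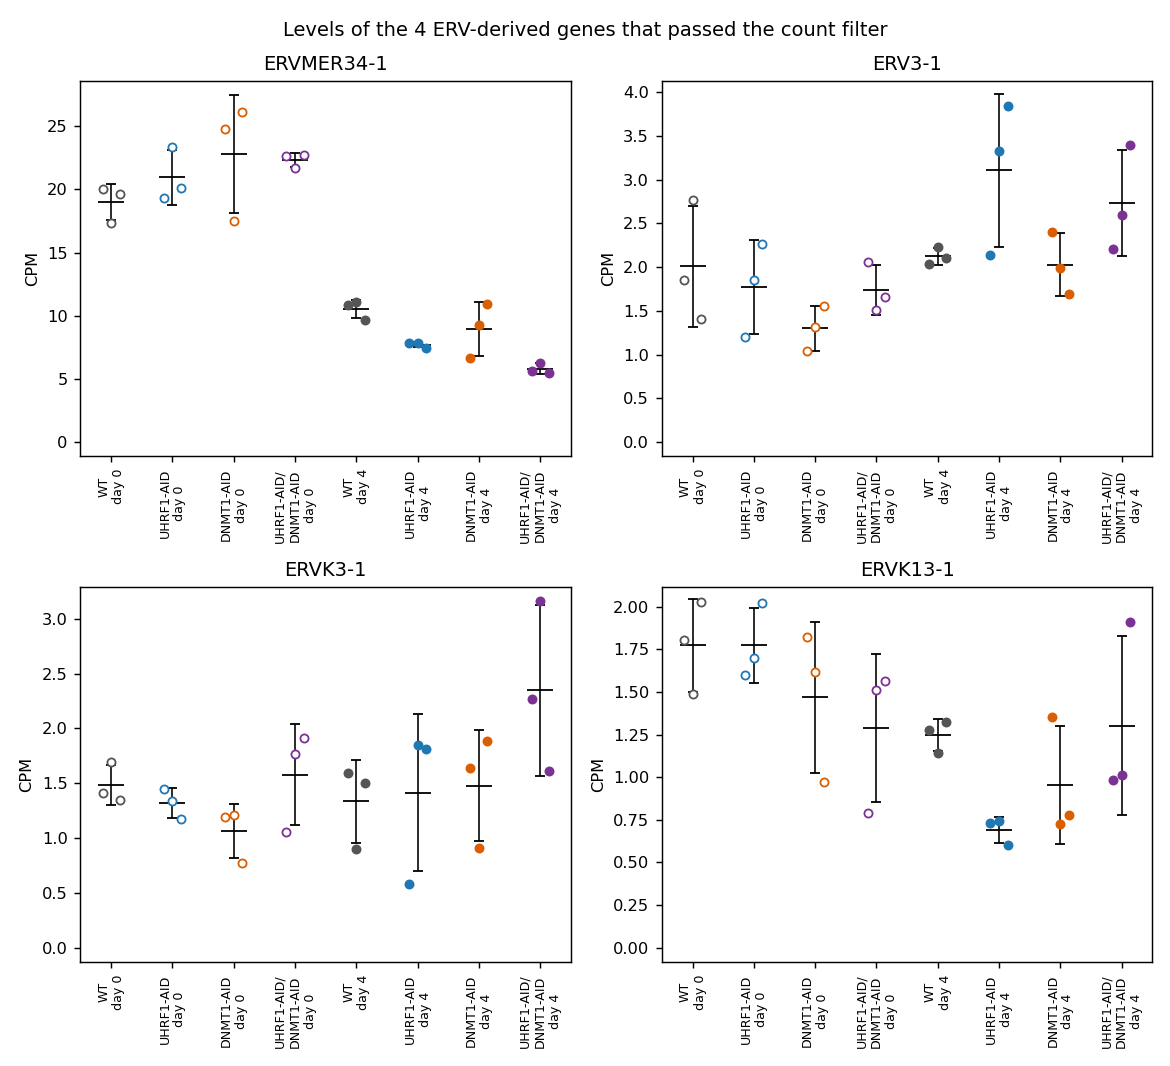
CPM (y axis, linear, from 0) of the 4 members that passed the count filter in each of 8 groups (x axis), with a point per library, open at day 0 and filled at day 4, and bars for the mean and SD of 3 libraries. ERVMER34-1 lies between 17.4 and 26.2 CPM in all day 0 libraries and between 5.48 and 11.1 in all day 4 libraries, while the other 3 members stay below 4 CPM.

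At day 4 the DNMT1-AID and compound libraries share a folder with the WT libraries, while the UHRF1-AID libraries do not, so that their difference from WT cannot be told apart from the folder. ERVMER34-1 stood at 10.5 ± 0.75 CPM (SD, n = 3) for WT, 7.70 ± 0.20 for UHRF1-AID, 8.93 ± 2.16 for DNMT1-AID and 5.80 ± 0.41 for compound cells. All UHRF1-AID and compound libraries were below all WT libraries, whereas the DNMT1-AID libraries overlapped them. The compound difference was -0.84 on the log2 scale (SE 0.18, edgeR adjusted p = 0.000711), under the fold threshold. It was -0.46 in UHRF1-AID cells (SE 0.17, edgeR adjusted p = 0.0912) and -0.23 in DNMT1-AID cells (SE 0.19, edgeR adjusted p = 0.486), the latter with a 95% interval of -0.65 to 0.18. Compound cells also differed from DNMT1-AID cells by -0.61 (SE 0.20, edgeR adjusted p = 0.0358).

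None of the 4 tested members was called against WT cells at day 4 by edgeR or by DESeq2, in any line. At an unadjusted p under 0.05 2 members passed in the UHRF1-AID, 0 in the DNMT1-AID and 2 in the compound line. Over all genes tested, 4608 of 13958, 3280 of 13582 and 6669 of 14219 had such an unadjusted p. For calls, the background was 6.99%, 2.57% and 11.7% of genes in the respective lines, most of them higher (5.77%, 2.29% and 9.21%, against 1.22%, 0.28% and 2.49% lower). With no minimum fold, 0, 0 and 1 of the 4 passed, against 17.4%, 7.95% and 38.2% of genes. The median log2 fold change of the 4 members was -0.19, -0.15 and 0.23, against 0.03, 0.00167 and 0.02 over all genes tested. Between compound and DNMT1-AID cells at day 4, 0 of 4 members were called (1 at an unadjusted p under 0.05, and 0 by DESeq2), against 6.84% of genes (5.74% higher and 1.1% lower). Of all 14246 genes tested there, 4687 had an unadjusted p under 0.05. With no minimum fold 1 passed, ERVMER34-1, against 20.5% of genes.

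At day 0, where tags but no auxin were present, 0 of 4 members were called in any line against WT by edgeR or DESeq2, and 0 had an unadjusted p under 0.05. Such a p was found for 512 of 13894, 711 of 13833 and 2836 of 14023 genes in the UHRF1-AID, DNMT1-AID and compound lines. In the UHRF1-AID, DNMT1-AID and compound lines 0.0%, 0.00723% and 1.31% of all genes were called, and 0.0%, 0.00723% and 3.64% with no minimum fold, which 0 members passed. The log2 differences of ERVMER34-1 were 0.15 (SE 0.14), 0.23 (SE 0.19) and 0.21 (SE 0.11). The largest difference among the members was that of ERV3-1 in DNMT1-AID cells, at -0.66 (95% interval -1.48 to 0.15).

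**Figure D2:**
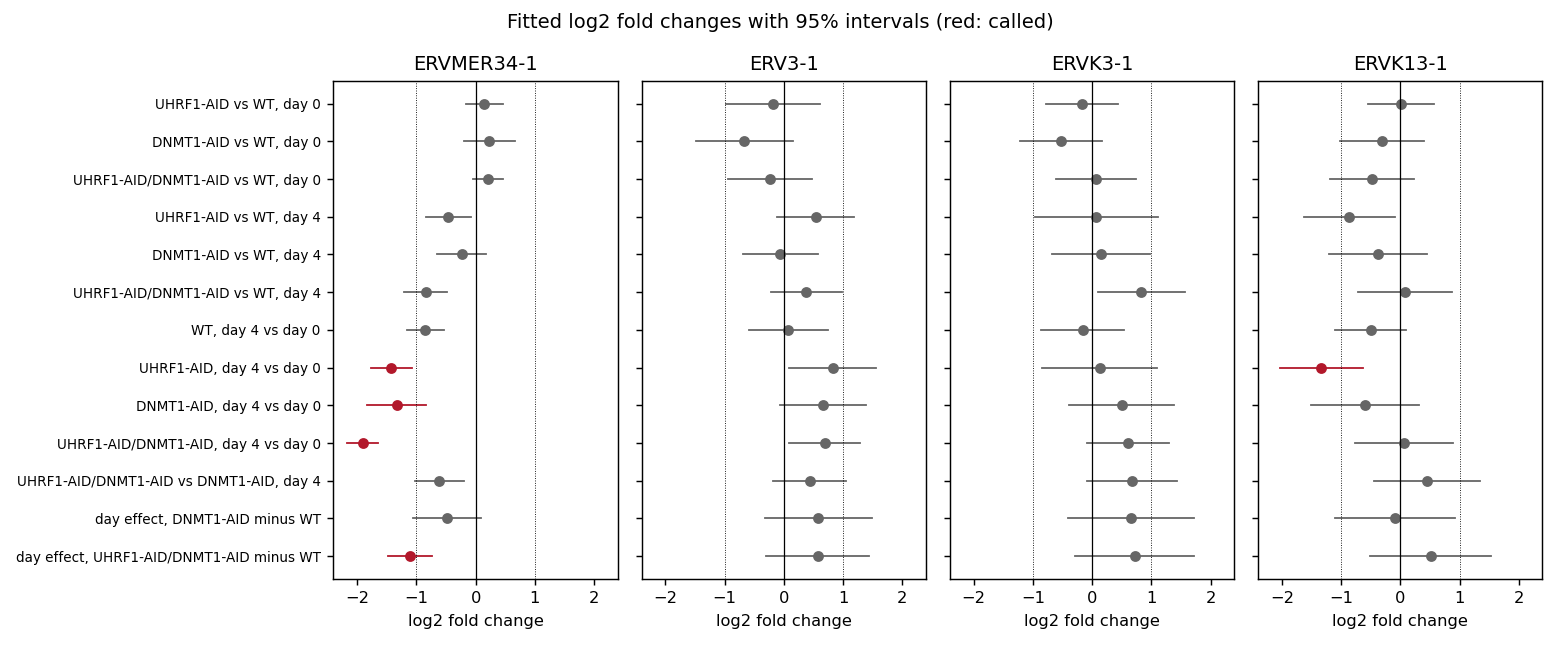
Fitted log2 fold changes (x axis) with 95% intervals (lines) for the 4 tested members (panels) in the 13 comparisons (y axis), where red marks a call and dotted lines mark the fold threshold. Calls are those of ERVMER34-1 in the day effects of the 3 AID lines (-1.42, -1.33 and -1.90) and in the compound minus WT difference (-1.10), and that of ERVK13-1 in UHRF1-AID cells (-1.33).

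ERVK13-1, the non-coding member, fell in UHRF1-AID cells. Its counts were low, from 12 to 50 reads per library. In UHRF1-AID cells CPM was 1.60, 1.70 and 2.02 at day 0 and 0.73, 0.74 and 0.60 at day 4. The groups did not overlap, and the fitted fall was 1.33 on the log2 scale (SE 0.31, edgeR adjusted p = 0.00624). In WT cells it went from 1.80, 1.48 and 2.03 to 1.28, 1.14 and 1.32 CPM, also without overlap, a difference of -0.50 (SE 0.27, edgeR adjusted p = 0.173). The difference was -0.59 (SE 0.41) in DNMT1-AID cells and 0.06 (SE 0.39) in compound cells, neither of them called. Against WT cells at day 4, ERVK13-1 in UHRF1-AID cells differed by -0.86 (SE 0.34, edgeR adjusted p = 0.112), and whether its day effect differs between UHRF1-AID and WT cells was not tested.

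ERV3-1, an envelope gene on chromosome 7 with a reading frame interrupted by a stop codon, was called in no comparison. In UHRF1-AID cells its CPM was 1.20, 1.85 and 2.26 at day 0 and 2.14, 3.33 and 3.85 at day 4, with overlapping groups. The difference there was 0.83 (SE 0.33, edgeR adjusted p = 0.0593). In compound cells the values went from 2.06, 1.51 and 1.65 to 2.21, 2.59 and 3.40 without overlap, and the difference of 0.69 (SE 0.29) had an edgeR adjusted p of 0.0393 without reaching the fold threshold. In DNMT1-AID cells the difference was 0.66 (SE 0.33, edgeR adjusted p = 0.135), and in WT cells 0.08 (SE 0.29). Since the overlapping ZNF117, a zinc finger gene, could take reads of the shared exon, its values are given beside: its day 4 minus day 0 differences were -0.42 for WT, -0.41 for UHRF1-AID, -0.63 for DNMT1-AID and -0.44 for compound cells, none of them called.

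ERVK3-1 was measured at 12 to 50 reads per library and was called in no comparison. Its highest group was compound cells at day 4, with 2.27, 3.16 and 1.61 CPM, against 1.59, 0.90 and 1.5 in WT cells. These groups did not overlap, with 1.59 as the highest WT and 1.61 as the lowest compound value. The difference was 0.83 (SE 0.35, edgeR adjusted p = 0.0693). Over the 6 fits that each left out 1 library it ranged from 0.56 to 1.04, with edgeR adjusted p from 0.0308 to 0.323. The highest, 1.04 with a call, came when replicate 3 of the compound line at day 4, its lowest value, was left out. The neighbouring ZNF8, a zinc finger gene 2513 bases before ERVK3-1 on the same strand, fell between day 0 and day 4 in WT (-2.19, edgeR adjusted p = 0.0224), UHRF1-AID (-1.42, edgeR adjusted p = 0.00299) and compound cells (-1.71, edgeR adjusted p = 0.00011). In DNMT1-AID cells the difference of ZNF8 was -0.23 (edgeR adjusted p = 0.709), not called.

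The 4 remaining members did not pass the count filter, and their reads are given as counted. ERVH48-1, the suppressyn gene, had no read in the WT and DNMT1-AID libraries at either day. In UHRF1-AID cells it had 1, 0 and 0 reads at day 0 and 1, 9 and 17 at day 4, so the groups overlapped at 1 read. In compound cells it had 0, 0 and 0 reads at day 0 and 8, 17 and 15 at day 4, and there the groups did not overlap. Its reads were thus found almost entirely in the day 4 libraries of the lines with a UHRF1 degron.

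Against a floor of 3 reads per library, ERVH48-1 was at least 4.42-fold higher in compound than in WT cells at day 4, at least 4.54-fold higher than in DNMT1-AID cells and at least 6.45-fold higher than in compound cells at day 0. In UHRF1-AID cells it was at least 2.52-fold higher than in WT cells at day 4, and at least 1.5-fold higher without replicate 3, the library with 17 reads. The exact two-sided permutation test over the libraries gave p = 0.1 for each of these, which is the smallest that 3 against 3 libraries allow, and p = 0.2 for day 4 against day 0 in UHRF1-AID cells. Without the count filter edgeR called ERVH48-1 in all 5 of these comparisons. Its reads in those fits lay almost entirely in the group where it was high. These calls are therefore no support by themselves, and no adjusted p is given for them. The summed trophoblast and fibroblast markers were also higher in compound than in WT cells at day 4, and their part was not tested.

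ERVW-1, the syncytin-1 gene, had no read in 22 libraries. The exceptions were 2 compound libraries at day 4, with 0, 4 and 4 reads in the 3 replicates. Without the count filter it was called by edgeR between day 0 and day 4 in compound cells (adjusted p = 0.0346), but not against WT cells (adjusted p = 0.0901) or DNMT1-AID cells (adjusted p = 0.134) at day 4. Its reads lay only in the high group of each comparison, so the call between the days is no support by itself. The exact permutation p was 0.4, since 1 compound library was at 0. A library of this depth with 0 reads allows a level of up to 0.12 to 0.19 CPM, counting 3 reads as the limit.

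HHLA2 had at most 2 reads in any library outside the compound line at day 4. It had 1, 0 and 0 reads in WT and 0, 0 and 1 in UHRF1-AID cells at day 0, and 2, 0 and 0 in WT and 0, 1 and 1 in UHRF1-AID cells at day 4. In compound cells it had no read at day 0 and 1, 5 and 4 at day 4, and in DNMT1-AID cells no read at either day. Without the count filter it was called between the days in compound cells (edgeR adjusted p = 0.0171), but not against WT cells at day 4 (edgeR adjusted p = 0.313), with exact permutation p values of 0.1 and 0.2. All HHLA2 reads of the called comparison lay in its day 4 libraries, so that call is no support by itself.

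ERVFRD-1, the syncytin-2 gene, had no read in any of the 24 libraries, which allows a level of up to 0.00654 CPM over all libraries together. These limits cover counting error only. SMIM13, in whose span ERVFRD-1 lies, was expressed at 26.4 to 41.9 CPM on average in the groups. Of 7 further genes whose symbols begin with ERV, 0 passed the count filter in any comparison and 3 had no read in any library.

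**Figure D3:**
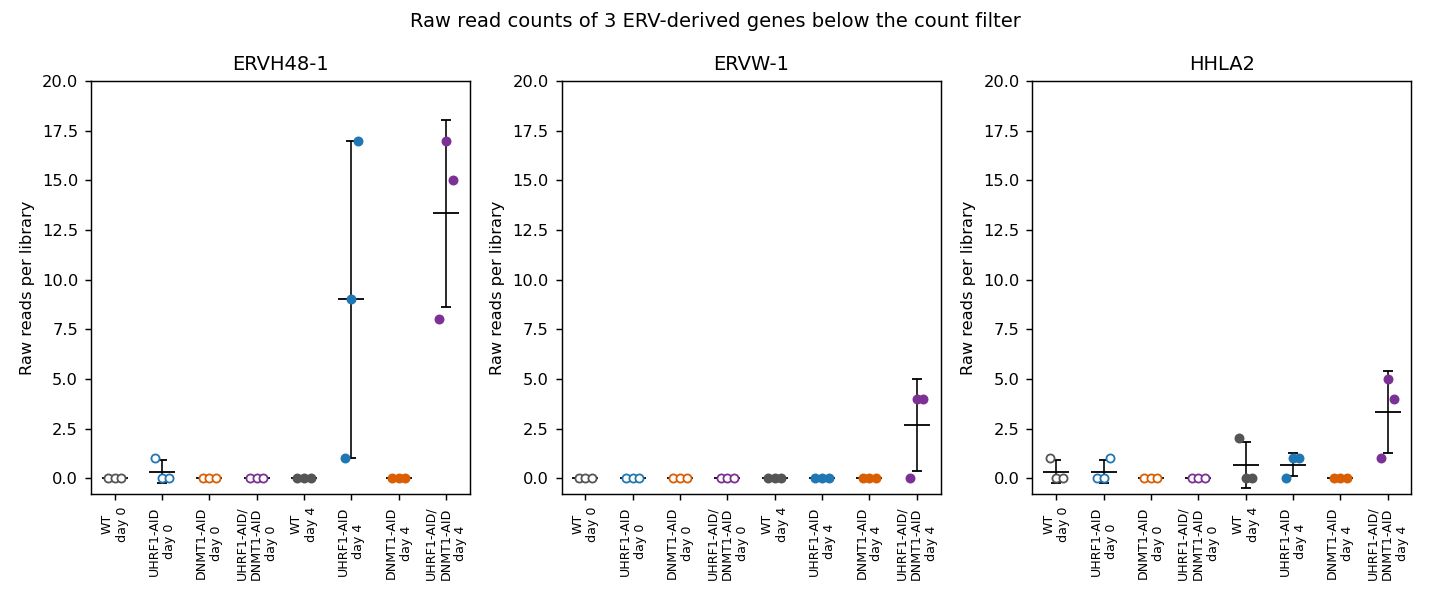
Raw reads per library (y axis, linear, from 0) of ERVH48-1, ERVW-1 and HHLA2 in each of the 8 groups (x axis), with a point per library, open at day 0 and filled at day 4, and bars for the mean and SD of 3 libraries. The highest values are 17, 4 and 5 reads in compound cells at day 4, and ERVH48-1 also reaches 17 reads in UHRF1-AID cells at day 4.

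Genes next to the members were examined as well. Near ERVMER34-1, DANCR, a long non-coding RNA, was chosen after its values were seen. It lies at chr4:52712404-52720351 on the plus strand, 2266 bases from the 3′ end of ERVMER34-1. At day 0 mean DANCR was 136, 126, 156 and 152 CPM (n = 3) in WT, UHRF1-AID, DNMT1-AID and compound cells, with 104 to 168 CPM over single libraries. At day 4 the means were 51.7, 25.4, 25.8 and 33.3, with 15.7 to 55.3 CPM over libraries and the widest spread, 15.7 to 53.3, in compound cells. Its day 4 libraries were thus all below its day 0 libraries in each line, as for ERVMER34-1. The fall was 1.39 on the log2 scale for WT, 2.29 for UHRF1-AID, 2.58 for DNMT1-AID and 2.15 for compound cells, and all of these were called (edgeR adjusted p = 0.000257, 1.01e-05, 2.92e-05 and 0.0163). Its day effect in compound minus WT cells was -0.81 (SE 0.49, edgeR adjusted p = 0.319).

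Neighbours at the other loci were read in the same way. Near ERVW-1, mean CPM of GATAD1 lay between 24.9 and 36.2 in the groups, and it was called in no comparison. NDUFV3, 3498 bases from ERVH48-1, had 24.3 to 40.8 CPM and was called in none. KCTD5, 9030 bases from ERVK13-1, rose between the days in every line, by 1.10 on the log2 scale in UHRF1-AID cells (edgeR adjusted p = 0.000233, called), 0.70 in WT (0.00485), 0.57 in DNMT1-AID (0.0039) and 0.37 in compound cells (0.000713). MYH15, 2083 bases from HHLA2, fell between the days in all 4 lines, by 2.30, 1.79, 2.28 and 2.12 on the log2 scale in WT, UHRF1-AID, DNMT1-AID and compound cells.

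The genes most like each member over the 24 libraries were taken by Pearson correlation of log2 CPM among 15813 genes, as a description over libraries that share the day, folder and lines. ERVMER34-1 was closest to GNL3, a nucleolar GTPase (r = 0.978), PUS1, a pseudouridine synthase (0.972), and RUVBL1, an ATPase of chromatin remodelling complexes (0.972). ERVH48-1 was closest to FRMD1 (0.972), ASGR2 (0.971) and PRDM13 (0.971), and it had no read in 17 of the libraries. The leading genes were ABAT for ERV3-1 (0.816), ANAPC15 for ERVK13-1 (0.833) and LINC02041 for ERVK3-1 (0.767).

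Partners of the encoded proteins were examined as a list of 6 genes: the receptors SLC1A5 and SLC1A4 of syncytin-1, MFSD2A of syncytin-2, TMIGD2 and KIR3DL3 of HHLA2, and GCM1, the transcription factor that drives the syncytin genes in trophoblast. SLC1A5, an amino acid transporter, was the most abundant, at 528 ± 31.2 CPM in WT cells at day 0 and 243 ± 22.9 at day 4, a called fall of 1.12 on the log2 scale (edgeR adjusted p = 0.000334). SLC1A4 fell by 1.84 in WT cells between the days and was already lower in compound than in WT cells at day 0 (-1.59, edgeR adjusted p = 0.00702). Between the days the list had 0 of 3 tested genes called higher and 2 lower in WT, 1 higher and 1 lower of 4 in UHRF1-AID, none of 3 in DNMT1-AID and 1 higher of 4 in compound cells, where 11.9%, 21.9%, 15.3% and 26.6% of all genes were called. The gene called higher between the days in UHRF1-AID and in compound cells was TMIGD2. It passed the count filter there only through its day 4 libraries, so these calls are no support by themselves. Against WT cells at day 4 none of the 3 tested was called in any line.

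TMIGD2, the HHLA2 receptor of T and natural killer cells, had 0 reads in WT cells at day 4, 11, 26 and 41 for UHRF1-AID, 11, 3 and 5 for DNMT1-AID and 14, 13 and 10 for compound cells, and at most 7 in any library at day 0. Between the days in UHRF1-AID cells it was at least 9.39-fold higher, and it passed the count filter there only through the day 4 libraries. The leukocyte marker PTPRC had between 4 and 15 reads per library in UHRF1-AID cells at day 4 and at most 4 elsewhere. The summed leukocyte markers, however, were highest in compound cells at day 4, at 1.20 to 1.66 CPM against 0.603 to 1.36 in UHRF1-AID cells. The part of these markers was not tested. KIR3DL3 had no read in any library and GCM1 at most 7.

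Other retroelement-derived genes were examined as a list. These 26 genes derived from retroelement gag or protease sequences include the PNMA, RTL and PEG10 families, and 13 to 16 of them were tested per comparison. Against WT cells at day 4, 4 of 14 tested were called in the UHRF1-AID line, 3 of 13 in the DNMT1-AID line and 8 of 16 in the compound line, all higher, where 5.77%, 2.29% and 9.21% of all genes were called higher. The number tested differs because genes with few or no reads in WT cells, such as PNMA5 and PNMA8A, passed the count filter only through the group in which they were high, so these shares are no support by themselves. The median log2 fold changes of the tested list genes were 0.43, 0.34 and 0.99, against 0.03, 0.00167 and 0.02 over all genes. These medians include the genes that entered through their high group, so they are no support by themselves either. Day 4 against day 0, 6 of 15, 4 of 14 and 9 of 16 were called higher in the 3 AID lines and none lower, against 12.1%, 8.62% and 15.1% of all genes called higher, while in WT cells 2 of 13 were called higher (ZCCHC12 and MOAP1) and 2 lower (PEG10 and ASPRV1). PNMA5 in all 3 AID lines, NYNRIN in UHRF1-AID and compound and PNMA8A in compound cells passed the count filter there only through day 4 libraries. The shares called between the days in the AID lines are therefore no support by themselves. In the test of day effects against WT cells, 0 of 14 were called for DNMT1-AID (0.139% of all genes, 0.132% higher). For compound cells 3 of 16 were called (5.41% of all genes, 3.46% higher), namely PEG10, ARC and NYNRIN, all higher. Of these, NYNRIN passed the count filter only through the compound libraries of day 4, where it was high, so its call is no support by itself. With no read in WT cells, PNMA5 had an SE of 17254 in the DNMT1-AID and 29680 in the compound test. PNMA8A likewise had an SE of 12530 in the compound test. These genes could not be called there, so the counts do not cover them.

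PNMA5, of the paraneoplastic Ma family, had no read in WT cells at either day. At day 4 its reads were 286, 228 and 327 for UHRF1-AID, 12, 16 and 17 for DNMT1-AID and 498, 511 and 704 for compound cells. It was at least 79.5-fold, 4.88-fold and 189-fold higher than in WT cells in the respective lines. PNMA8A, of the same family, had no read in WT cells at either day. At day 4 it had 6, 7 and 3 reads in UHRF1-AID cells, none in DNMT1-AID cells and 25, 38 and 23 in compound cells. In compound cells it was at least 9.54-fold higher than in WT cells. Both genes entered the test only through the libraries in which they were high, and no p is given for them.

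PEG10, an imprinted gene with a placental role, had 6.43 ± 0.63 CPM (SD, n = 3) in WT cells at day 4 and 13.7 ± 0.87, 19.5 ± 9.80 and 22.7 ± 1.13 in UHRF1-AID, DNMT1-AID and compound cells. It was called higher in all 3, by 1.08, 1.61 and 1.83 on the log2 scale (edgeR adjusted p = 0.00357, 0.0449 and 7.38e-09). WT cells at day 0 had 20.6 ± 4.51 CPM, and between the days PEG10 fell by 1.68 on the log2 scale in WT cells (edgeR adjusted p = 0.00058). It rose between the days in no AID line, with differences of -0.81 in UHRF1-AID (edgeR adjusted p = 0.00373), -0.28 in DNMT1-AID (0.704) and -0.24 in compound cells (0.0908). Its day effect differed from that of WT cells by 1.40 in compound (SE 0.25, edgeR adjusted p = 0.0022) and by 1.40 in DNMT1-AID cells (SE 0.61, edgeR adjusted p = 0.376). PNMA2 was called higher in all 3 lines at day 4, by 1.97, 1.34 and 1.30. ARC, a synaptic gene that forms capsids, was higher in compound than in WT cells at day 4 by 1.29 (edgeR adjusted p = 9.76e-07), with 30.3 ± 3.52 against 12.5 ± 2.45 CPM.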

How the data were processed

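Poly(A) RNA of 24 HCT116 libraries was sequenced from paired ends. Per the labels and the study's methods, the authors used STAR against hg38 after trimming, and featureCounts for gene totals. What they deposited is unnormalized counts, for which strand and multiple-alignment settings are not given in the sources used here. Members and lists were chosen with earlier results of these data known. Spike-in rows (92) were left out. Each comparison was fitted with edgeR 4.0.16 (quasi-likelihood, robust; filterByExpr with a minimum count of 10; TMM) on its own groups, with Benjamini-Hochberg adjustment over the 13582 to 15016 genes tested. Named genes were all members and, in each list and comparison, the called genes with the 3 smallest p, with neighbours of the members and the 3 genes most correlated with each. PNMA8A, PNMA2 and ASPRV1 are also named in comparisons where this rule did not pick them, after their values were seen. Depth was 15824804 to 25073821 counts per library. Genes below the filter were compared with a floor of 3 counts per library. On simulated data 98.5% of 200 changed genes were recovered among 13877 for compound against WT cells at day 4. For the difference of day effects between compound and WT cells, 91% of 200 were recovered among 14098. Recovery at the folds and read counts of the members was not tested. Replicate numbers were checked for pairing: deviations of same-numbered libraries correlated by -0.620 to 0.231, and only in UHRF1-AID day 4 against day 0 did all 3 pairs exceed 0.1 (0.227, 0.144 and 0.121). Alternatives were DESeq2, its size factors, no filter, 1 fit of 24 libraries, a length trend, a replicate block, no minimum fold and leaving out each library.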

Additional observations from a re-analysis of the deposited data

Results flagged for a closer look

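The change of ERVMER34-1 between day 0 and day 4 differed between the compound and WT lines by -1.10 on the log2 scale (SE 0.17, edgeR adjusted p = 0.00087) in a test of the difference itself. CPM went from 20.0, 17.4 and 19.7 to 10.8, 11.1 and 9.68 in WT cells and from 22.6, 21.7 and 22.7 to 5.65, 6.27 and 5.48 in compound cells, so that in both lines every library of day 4 was below every library of day 0.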

How the results depend on the processing

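Across DESeq2, its size factors, the replicate block and the length trend, the numbers of members called did not change in any of the 13 comparisons. The difference of day effects of ERVMER34-1 ranged from -1.16 to -1.02 over all alternatives. The other settings moved the counts of called members. With no filter on low counts 1 member was called in UHRF1-AID and 1 in compound against WT cells at day 4, 1 in compound against DNMT1-AID cells, and 4 between the days in compound cells, because untested members entered. The fit of all 24 libraries gave 1, 1, 1 and 2, and there too ERVH48-1 entered only through its high libraries. With no minimum fold, 1 was called in compound against WT and 1 in compound against DNMT1-AID cells at day 4, 1 between the days in WT and 2 in compound cells. Without the filter 1632, 561 and 2535 genes were called against WT cells at day 4 in UHRF1-AID, DNMT1-AID and compound cells, against 975, 349 and 1663 with it. The difference of day effects between DNMT1-AID and WT cells held 20 called genes, but 595 without the filter, 92 by DESeq2, 39 in the fit of all libraries and 12 with the replicate block. At day 0, DESeq2 called 7 genes in UHRF1-AID and 5 in DNMT1-AID cells, and no filter 10 and 5, against 0 and 1.

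Leaving out 1 library at a time gave 0 to 1 called members in compound against WT cells and 0 to 1 against DNMT1-AID cells at day 4, 2 to 3 between the days in UHRF1-AID cells, and 2 between the days in compound cells in each such fit, where ERVH48-1 passed the filter only through the libraries in which it was high, so that this added call is no support. Signs turned only for differences that were not called, and the cause was not tested. At day 0 against WT, ERVK13-1 in UHRF1-AID cells was -0.0032 in the fit of all libraries, -0.062 with the length trend and -0.087 to 0.090 without 1 library. Likewise ERV3-1 ranged from -0.39 to 0.13 in UHRF1-AID and -0.45 to 0.077 in compound cells, and ERVK3-1 from -0.092 to 0.27 in compound cells. At day 4 against WT, ERVK3-1 ranged from -0.20 to 0.43 in UHRF1-AID and -0.063 to 0.41 in DNMT1-AID cells, ERV3-1 from -0.19 to 0.052 in DNMT1-AID cells and ERVK13-1 from -0.31 to 0.24 in compound cells. Between the days, ERV3-1 ranged from -0.12 to 0.38 and ERVK3-1 from -0.28 to 0.069 in WT, ERVK3-1 from -0.14 to 0.49 in UHRF1-AID and ERVK13-1 from -0.32 to 0.22 in compound cells. The DNMT1-AID minus WT day effect of ERVK13-1 ranged from -0.43 to 0.079. ERV3-1 between the days in UHRF1-AID cells was called at 1.03 without replicate 1 of day 4. With the replicate block the UHRF1-AID day effect of ERVMER34-1 was -1.42 and that of ERVK13-1 was -1.33, and the block changed no call of a member. Depth limits ERVH48-1, ERVW-1, HHLA2 and ERVFRD-1, which had at most 17 reads in a library.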
